A study of Mus musculus with 6 samples.

Results

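The MHC class II genes encode the machinery with which a cell displays peptides from engulfed material to CD4+ T cells. Here 10 of them (H2-Aa, H2-Ab1, H2-Eb1, Cd74, H2-DMa, H2-DMb1, H2-DMb2, H2-Oa, H2-Ob and Ciita) were taken by gene symbol from a table of 49315 genes, and each symbol matched 1 row. Expression was compared between gastrocnemius muscles given AAV9-HSA-CAAHR (replicates 31, 34 and 36) and muscles given AAV9-HSA-GFP (replicates 42, 43 and 46). The mice were male C57BL6J, an inbred strain, and had received the virus by injection into the muscle at 5 months of age. Tissue was collected 5 months after injection. CAAHR is a mouse aryl hydrocarbon receptor lacking its ligand binding domain, which makes it constitutively active, and GFP was the green fluorescent protein ZsGreen1. Expression from both vectors was driven by HSA, the promoter of human skeletal actin, whose activity is restricted to muscle fibres. Every library came from virus-injected muscle, and uninjected muscle was not analysed here. By quantitative PCR, the authors found selected immune genes no lower in CAAHR than in uninjected muscle. They read this as a local immune response to AAV9-GFP, which was not tested here. The labels gave each library a number of its own but did not say that each came from a separate mouse, so p-values measure the spread between these libraries.

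A class II molecule is a pair of chains, alpha and beta, that is assembled with the invariant chain Cd74. Cd74 fills the peptide groove until proteases of the endosome degrade it, H2-DM then exchanges its last fragment for a peptide, and H2-O restrains H2-DM. Transcription of these genes depends on the co-activator Ciita, which docks on factors bound to the X and Y boxes of their promoters. Constitutive class II expression is known mainly from dendritic cells, B cells and macrophages, and interferon gamma induces Ciita in many other cell types. Resting muscle fibres are known to express little of it.

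Libraries held between 43432994 and 58825752 counts. Values below are CPM, read counts scaled to a fixed library total with TMM factors (trimmed means of the log ratios between libraries), and 3 counts corresponded to between 0.0492 and 0.0721 CPM. All libraries held abundant muscle fibre transcripts, and 4 of 12 fibre genes were called lower and 0 higher by edgeR in CAAHR muscles. That count was 7 without CAAHR replicate 34, 1 without CAAHR replicate 31, GFP replicate 42 or GFP replicate 43, and 0 without CAAHR replicate 36 or GFP replicate 46. Acta1 (skeletal actin), the called gene of smallest p, reached a mean of 21799 CPM in CAAHR libraries (SD 181, n = 3) and 36461 CPM in GFP libraries (SD 1269). Its log2 fold change was -0.74, followed by Ckm (creatine kinase) with -0.73, Tnnt3 with -0.69 and Tnni2 with -0.57, the latter both fast troponins. The summed level of 9 slow-fibre genes was 649 CPM in CAAHR replicate 34 against 2783 and 2518 CPM in the other CAAHR libraries, and from 228 to 461 CPM in GFP libraries. Of these 9, edgeR called 1, Myh7b, higher, while 8 had an unadjusted p under 0.05. DESeq2 called 8 of them, limma-voom 6, and edgeR 7 without robust estimation, 7 without CAAHR replicate 34 and 0 without any other single library. CAAHR replicate 34 did not stand apart on the class II genes. The part of fibre composition in their difference was not tested.

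Of the 10 genes, 8 lie in a stretch of 224.3 kb on chromosome 17 (34092340 to 34316674, GRCm38). In order along it they are H2-Oa, H2-DMa, H2-DMb2, H2-DMb1, H2-Ob, H2-Ab1, H2-Aa and H2-Eb1. RefSeq promoter windows (250 bases before to 50 after the start, GRCm38.p6) were at hand for 7 of the 10 genes and not for H2-Ab1, Cd74 or Ciita. All promoter windows of 27025 genes served as the background, and both strands were searched. The Y box core GATTGG was present in a window of 7 of 7 genes, against 18.2% of all genes. The shorter ATTGG, which it contains, was present in the same 7, against 41.1%. The X box letters AGCAAC were present in 3 of 7 (H2-Eb1, H2-Oa and H2-Ob), against 16.7%. The core of the AHR response element, GCGTG, was present in 0 of 7, against 35.2%, which says only that these letters are not in these windows. Stretches from 190 to 30 bases before the start are shown for 3 genes. In these the RefSeq start lay within 5 bases of the GENCODE start. The stretches show where the boxes stand in genes that were called lower or came close to the threshold. Capitals mark AGCAAC and GATTGG, or CCAATC where GATTGG is on the other strand.
H2-Aa, chr17:34287853-34288013, minus strand: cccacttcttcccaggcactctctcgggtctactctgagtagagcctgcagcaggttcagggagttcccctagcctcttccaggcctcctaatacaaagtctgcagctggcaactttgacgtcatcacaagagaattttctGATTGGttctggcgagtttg
H2-Eb1, chr17:34305677-34305837, plus strand: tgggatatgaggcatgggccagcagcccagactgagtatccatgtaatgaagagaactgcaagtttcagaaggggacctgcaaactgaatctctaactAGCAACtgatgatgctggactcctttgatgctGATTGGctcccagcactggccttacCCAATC
H2-Ob, chr17:34238715-34238875, plus strand: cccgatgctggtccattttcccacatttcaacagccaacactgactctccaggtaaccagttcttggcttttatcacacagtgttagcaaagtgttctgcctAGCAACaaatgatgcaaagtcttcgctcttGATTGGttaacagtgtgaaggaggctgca

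In H2-Eb1 the X box letters began at position -92 from the start and the Y box core at -60. In H2-Ob they began at -88 and -58, and in H2-Oa at -77 and -44. In H2-Aa the Y box core began at -49, and the letters AGCAAC were not found.

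The class II genes were expressed at a lower level in CAAHR than in GFP muscles. Their summed level was 30.2, 30.9 and 32.6 CPM in CAAHR replicates 31, 34 and 36, and 91.5, 266 and 118 CPM in GFP replicates 42, 43 and 46. The CAAHR libraries were alike, the GFP libraries spread over a 2.91-fold range with replicate 43 highest, and the groups did not overlap. The mean was 31.2 ± 1.23 CPM (SD, n = 3) against 158 ± 94.1 CPM, which is 5.07-fold higher in GFP muscles, or 3.35-fold without GFP replicate 43. In whole muscle, fewer class II-positive cells and less class II RNA per cell cannot be told apart.

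In the edgeR quasi-likelihood test over 15847 genes, 9 of the 10 members passed the filter on low counts and H2-Oa did not. H2-DMb2, H2-Ob and Ciita reached the filter's level in every GFP library but not in every CAAHR library. They were thus tested only because of the group in which they were higher. At a Benjamini-Hochberg adjusted p under 0.05, 6 of the 9 were lower in CAAHR muscles (H2-Ab1, Cd74, H2-DMa, H2-DMb1, H2-Ob and Ciita), where 4.57% of all tested genes were called lower and 7.6% were called in either direction. None was called higher (0 of 9, with 3.04% of all tested genes called higher). The 6 were also more than 2-fold lower in CAAHR than in GFP muscles, as were 2.51% of all tested genes. All 9 had an unadjusted p under 0.05, as did 23.9% of tested genes, and log2 fold changes below -1, as did 5.11%. In 9 of 9 every CAAHR library lay below every GFP library, a pattern shown by 14.9% of tested genes, and in 0 of 9 every CAAHR library lay above, against 15% of tested genes. H2-Aa, H2-Eb1 and H2-DMb2 had adjusted p of 0.0501, 0.0527 and 0.0542. The median log2 fold change of the 9 tested members was -2.28, against 0.01 for all tested genes.

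The calls depended on single libraries. H2-Ob lost its call without CAAHR replicate 36, H2-DMb1 without CAAHR replicate 31 or 36, and Ciita without CAAHR replicate 31 or 36 or GFP replicate 43. H2-Ab1, Cd74 and H2-DMa lost theirs when any 1 of the CAAHR replicates, or GFP replicate 46, was left out. H2-Aa and H2-Eb1 passed without GFP replicate 42 or 43, and H2-DMb2 without GFP replicate 42. The count was thus 1 without CAAHR replicate 31, 3 without CAAHR replicate 34, 0 without CAAHR replicate 36, 9 without GFP replicate 42, 7 without GFP replicate 43 and 3 without GFP replicate 46, with 9 at an unadjusted p under 0.05 in each.

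**Figure D1:**
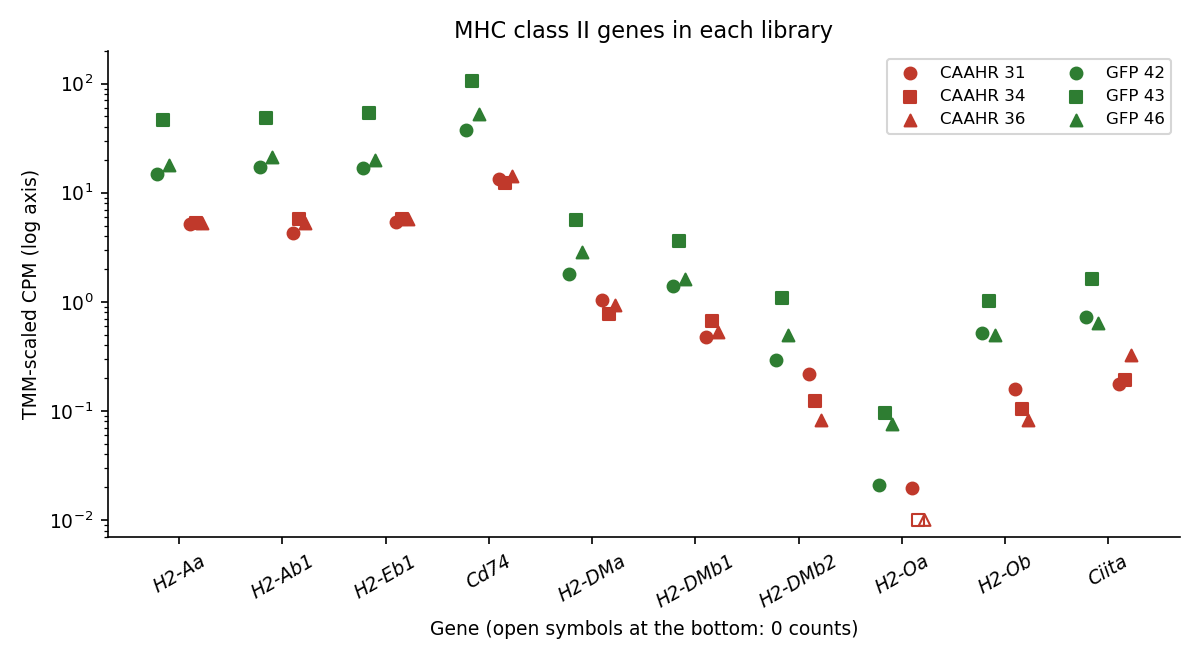
Level of each class II gene (TMM-scaled CPM, log axis) in the 3 CAAHR and 3 GFP libraries, 1 point per library. GFP replicate 43 is the highest library for each of the 10 genes, and H2-Oa has 0 counts in 2 CAAHR libraries (open symbols).

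H2-Aa (ENSMUSG00000036594, chromosome 17, 34282744 to 34287823) encodes the alpha chain of I-A, the class II molecule that C57BL6 mice display. Its level was 5.12, 5.23 and 5.28 CPM in CAAHR replicates 31, 34 and 36, and 14.9, 45.95 and 18.0 CPM in GFP replicates 42, 43 and 46. The CAAHR values lay close together, below each GFP value. The log2 fold change was -2.33 ± 0.48 (SE), which missed the edgeR threshold with all libraries and passed it without GFP replicate 43 (-1.66 ± 0.14, adjusted p 0.000433).

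H2-Ab1 (ENSMUSG00000073421, 34257689 to 34269419) encodes the beta chain that pairs with H2-Aa. Its level was 4.29, 5.705 and 5.23 CPM in CAAHR replicates 31, 34 and 36, and 17.1, 48.7 and 21.4 CPM in GFP replicates 42, 43 and 46. The groups did not overlap, and the log2 fold change was -2.51 ± 0.45 (edgeR adjusted p 0.0316). The ratio of H2-Ab1 to H2-Aa counts was 0.973 ± 0.127 in CAAHR and 1.13 ± 0.0669 in GFP muscles, a difference of -0.23 on the log2 scale (two-sided exact permutation test, p = 0.2, where 0.1 is the smallest p that 3 libraries against 3 can give). As no p under 0.05 was possible, this test cannot show whether the chains of the pair changed by different factors.

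H2-Eb1 (ENSMUSG00000060586, 34305867 to 34316674) encodes the beta chain of I-E. It was at 5.34, 5.79 and 5.77 CPM in the CAAHR libraries, and at 16.9, 53.55 and 19.75 CPM in GFP replicates 42, 43 and 46. The groups did not overlap, and the log2 fold change of -2.41 ± 0.51 missed the threshold. Its alpha partner, annotated as the pseudogene H2-Ea-ps, had 0 counts in all 6 libraries, which allows at most 3 counts or 0.0721 CPM in the shallowest. C57BL6 mice are known to lack I-E on the cell surface because this alpha gene is defective. H2-Eb2, a lesser known beta gene of the same region, had 0, 1 and 0 counts in the CAAHR libraries and 0, 6 and 1 in GFP replicates 42, 43 and 46, and was not tested.

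Cd74 (ENSMUSG00000024610, chromosome 18, 60803848 to 60812652), the invariant chain, was the most abundant member. It was at 13.4, 12.3 and 14.35 CPM in CAAHR replicates 31, 34 and 36, and at 37.9, 104.6 and 52.5 CPM in GFP replicates 42, 43 and 46. The highest CAAHR library lay below the lowest GFP library. The log2 fold change was -2.28 ± 0.40 (edgeR adjusted p 0.0303).

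H2-DMa and H2-DMb1 encode the chains of H2-DM, the exchange factor. H2-DMa (ENSMUSG00000037649, 34119541 to 34139101) was at 1.03, 0.770 and 0.935 CPM in the CAAHR libraries, and at 1.78, 5.67 and 2.83 CPM in GFP replicates 42, 43 and 46. Its log2 fold change was -1.90 ± 0.41 (edgeR adjusted p 0.0276). H2-DMb1 (ENSMUSG00000079547, 34153072 to 34160230) was at 0.475, 0.665 and 0.525 CPM against 1.39, 3.63 and 1.605 CPM, and its log2 fold change was -1.98 ± 0.39 (edgeR adjusted p 0.0180). For both genes the groups did not overlap. The ratio of H2-DMa to H2-Aa counts was 0.175 ± 0.0269 in CAAHR and 0.134 ± 0.0208 in GFP muscles. The log2 difference was 0.39 (exact permutation test, p = 0.2, where a p under 0.05 was not possible). Exons of H2-DMa share 360 bases with Brd2 on the opposite strand, a gene with 3801 to 6301 counts per library, and whether the library preparation kept strand is not given in the sources used here. Brd2 did not pass the test (log2 fold change 0.08 ± 0.11).

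H2-DMb2 (ENSMUSG00000037548, 34143307 to 34151555) is a near copy of H2-DMb1. In 1 annotated transcript of each, 94.5% of 1254 aligned bases were identical, with an identical run of up to 221 bases, so reads from such runs cannot be assigned to a single copy and both levels are uncertain. It was at 0.2175, 0.1225 and 0.0820 CPM in CAAHR replicates 31, 34 and 36, and at 0.290, 1.08 and 0.491 CPM in GFP replicates 42, 43 and 46. The groups did not overlap but came close, and the log2 fold change of -2.13 ± 0.58 missed the threshold.

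H2-Oa and H2-Ob encode the chains of H2-O, the inhibitor of H2-DM, known mainly from B cells and thymic epithelium. H2-Ob (ENSMUSG00000041538, 34238903 to 34254414) was at 0.158, 0.105 and 0.0820 CPM in CAAHR replicates 31, 34 and 36, and at 0.518, 1.009 and 0.491 CPM in GFP replicates 42, 43 and 46. Every GFP library exceeded every CAAHR library, and the log2 fold change was -2.53 ± 0.46 (edgeR adjusted p 0.0118). H2-Oa (ENSMUSG00000024334, 34092340 to 34095234) had 1, 0 and 0 counts in the CAAHR libraries and 1, 4 and 4 counts in GFP replicates 42, 43 and 46. These counts were too few for H2-Oa to pass the filter. With edgeR run without the filter, H2-Oa had an unadjusted p under 0.05 and was not called, on at most 4 counts per library.

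Ciita (ENSMUSG00000022504, chromosome 16, 10480059 to 10528418), the class II transactivator, was at 0.178, 0.1925 and 0.328 CPM in CAAHR replicates 31, 34 and 36, and at 0.725, 1.63 and 0.642 CPM in GFP replicates 42, 43 and 46. The groups did not overlap. Its log2 fold change of -2.07 ± 0.46 (edgeR adjusted p 0.0268) was of the size seen for the structural genes. Its exons share 329 bases with Dexi on the opposite strand.

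**Figure D2:**
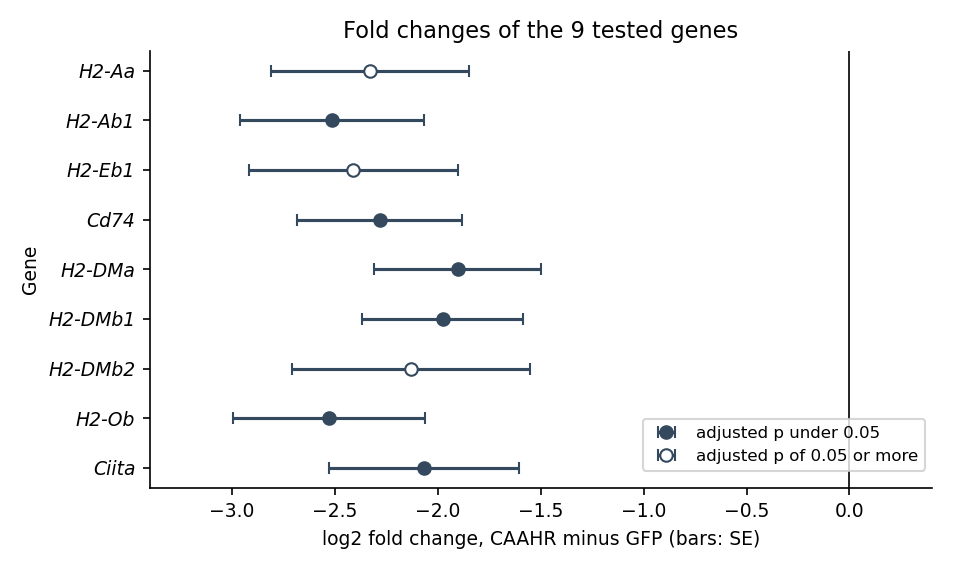
Log2 fold change (CAAHR minus GFP, edgeR, bars show the SE) of the 9 tested class II genes, with filled points for an adjusted p under 0.05. The estimates lie between -2.53 (H2-Ob) and -1.90 (H2-DMa).

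The genes differed far more in level than in fold change. Levels between genes are given per kilobase of annotated exon. In CPM per kb, GFP muscles held 38.7 ± 20.9 of Cd74, 15.5 ± 10.5 of H2-Eb1, 11.3 ± 6.68 of H2-Ab1 and 6.92 ± 4.51 of H2-Aa. H2-DMb1 followed at 1.31 ± 0.735, H2-DMa at 0.994 ± 0.584 and H2-DMb2 at 0.355 ± 0.236. Lowest were H2-Ob at 0.125 ± 0.0542, Ciita at 0.105 ± 0.0577 and H2-Oa at 0.0456 ± 0.0277. The first 4 levels in CAAHR muscles were 7.95 ± 0.611, 2.90 ± 0.132, 1.98 ± 0.280 and 1.37 ± 0.0216 CPM per kb, in the same order.

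Within each of the 6 libraries Cd74 exceeded H2-Eb1, H2-Eb1 exceeded H2-Ab1, H2-Ab1 exceeded H2-Aa and H2-Aa exceeded H2-DMb1. H2-DMb1 exceeded H2-DMa in 5 of 6 libraries and H2-Ob exceeded Ciita in 4 of 6, so the order within these pairs is not settled beyond the spread. Across GFP libraries the ranges of all neighbours in this order overlapped except H2-Aa and H2-DMb1. Across CAAHR libraries the overlapping neighbours were H2-DMb1 with H2-DMa and H2-Ob with Ciita. The order also rests on exon length over all annotated transcripts of a gene (3448 bases for H2-DMa, 1681 for H2-DMb1). In CPM, without division by length, H2-DMa exceeded H2-DMb1 and Ciita exceeded H2-Ob in every library. Likewise in CPM, H2-Aa exceeded H2-Ab1 in CAAHR replicates 31 and 36, and H2-Ab1 exceeded H2-Eb1 in GFP replicates 42 and 46.

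The make-up of the class II transcripts was similar in every library, although their sum ran from 30.2 to 266 CPM. Cd74 made up between 39.3% (GFP replicate 43) and 44.6% (GFP replicate 46) of the summed CPM. The 3 I-A and I-E chains made up between 48.9% and 55.7%, and with Cd74 they held from 93.1% to 95.1%. H2-Ab1 ran from 14.2% in CAAHR replicate 31 to 18.7% in GFP replicate 42. H2-DMa held from 2.49% to 3.41% in CAAHR and from 1.95% to 2.41% in GFP libraries. Its partner chain H2-DMb1 held from 1.57% to 2.15% and from 1.36% to 1.52%. The shares of both, unlike their levels, were thus higher in each CAAHR library than in any GFP library.

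**Figure D3:**
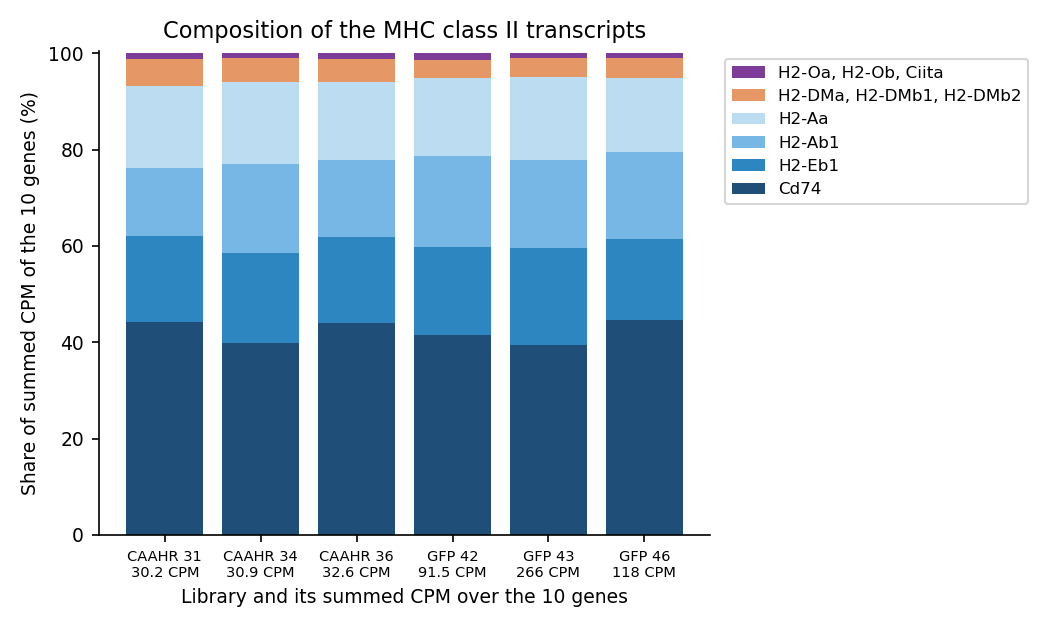
Share of the summed CPM of the 10 class II genes held by each gene or gene group (percent, stacked), for the 6 libraries, with the summed CPM under each bar. Cd74 holds 39.3% to 44.6% in each library while the sum runs from 30.2 to 266 CPM.

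Genes whose course over the 6 libraries was most like that of the summed class II level were sought among 12236 genes with a mean of at least 1 CPM, by the root-mean-square difference of centred log2 CPM. The nearest was Ptprc (0.157), the pan-leukocyte surface phosphatase CD45. It was followed by Pirb (0.182), an inhibitory receptor of myeloid and B cells, Itgal (0.199), an integrin of leukocytes, and Mzb1 (0.222), a chaperone of antibody-producing cells. Mpeg1 (0.255), Selplg (0.256), Ctss (0.258) and Coro1a (0.259) completed the 8. The median over all genes compared was 1.21. The tested members themselves lay between 0.0605 (H2-Aa) and 0.418 (H2-DMb2), which is no finding because they make up the sum.

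Ptprc was at 0.949, 1.05 and 1.12 CPM in CAAHR replicates 31, 34 and 36, and at 2.36, 9.18 and 4.19 CPM in GFP replicates 42, 43 and 46. Every GFP library exceeded every CAAHR library. Cd74 had 14.1, 11.7 and 12.9 counts per Ptprc count in the CAAHR libraries and 16.04, 11.4 and 12.5 in the GFP libraries, so the groups overlapped. The log2 difference of the ratio was -0.04 (exact permutation test, p = 0.9), with SDs of 0.13 among CAAHR and 0.25 among GFP libraries, and its sign changed without CAAHR replicate 34 (0.03) or GFP replicate 42 (0.11). Ptprc was the gene nearest to the class II sum, of which Cd74 is the largest part. The similar ratio thus restates that nearness and is no separate result. Against Adgre1, the F4/80 antigen of macrophages, Cd74 had 14.4, 25.1 and 12.3 counts per count in CAAHR replicates 31, 34 and 36, and 26.1, 20.6 and 32.7 in GFP replicates 42, 43 and 46. The log2 difference was -0.66 (exact permutation test, p = 0.2). Adjusted over the 4 ratios, the p-values were 0.9 for Ptprc and 0.267 for the others.

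**Figure D4:**
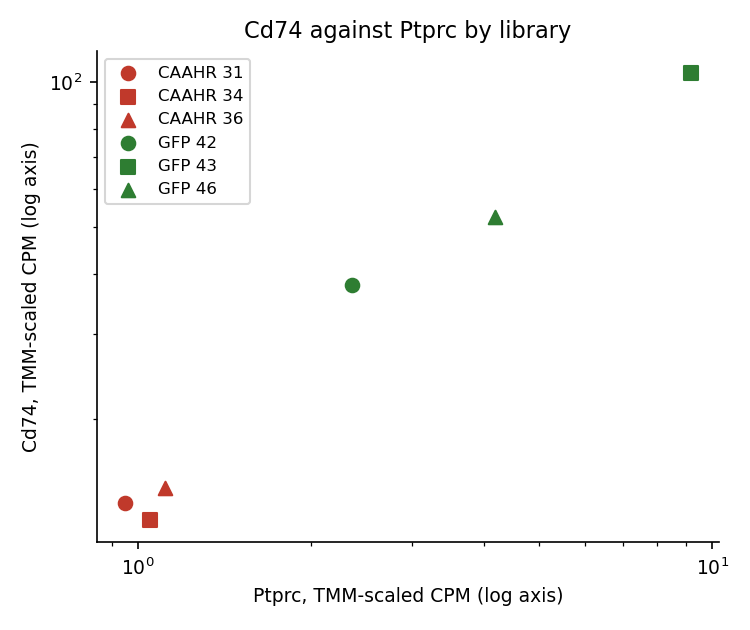
Cd74 against Ptprc (TMM-scaled CPM, both axes logarithmic), 1 point per library. The 3 CAAHR libraries sit together near 1 CPM of Ptprc, and the GFP libraries extend along the same ratio up to 9.18 CPM of Ptprc and 104.6 CPM of Cd74.

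Lists of marker genes were examined for the cells that carry or meet class II, and their part in the class II difference was not tested. Of 9 leukocyte genes, 6 were called lower and 0 higher, with a median log2 fold change of -1.96. The count fell to 2 without CAAHR replicate 31 or 36 and to 3 without CAAHR replicate 34 or GFP replicate 46. Rac2 was at 0.436 ± 0.132 against 2.79 ± 1.27 CPM, Coro1a at 1.54 ± 0.261 against 6.36 ± 2.94 CPM, Cd52 at 0.299 ± 0.126 against 2.74 ± 1.79 CPM and Laptm5 at 2.45 ± 0.492 against 7.34 ± 3.37 CPM in CAAHR against GFP muscles. Ptprc passed as well (-2.33 ± 0.48, edgeR adjusted p 0.0317). Cd52 passed the filter on low counts through the GFP group only. The summed level of the list ran from 12.0 to 14.8 CPM in CAAHR and from 23.1 to 57.8 CPM in GFP libraries, and no listed gene was at 0 in any library.

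Of 13 macrophage genes, 12 were tested and edgeR called 0, while 8 had an unadjusted p under 0.05 and DESeq2 called 6. The log2 fold changes ran from -1.64 (Adgre1) to -0.10 (Mertk, named after its values were seen), with a median of -1.11. The sum ran from 31.4 to 54.3 CPM in CAAHR and from 62.6 to 129.86 CPM in GFP libraries. Adgre1 was at 0.861 ± 0.342 against 2.71 ± 2.05 CPM (edgeR adjusted p 0.127). Of 10 B cell genes, 7 were tested and 2 were called lower, a count of 1 without CAAHR replicate 34 and 0 without CAAHR replicate 31 or 36 or GFP replicate 43 or 46. These were the B cell receptor chains Cd79a (0.182 ± 0.0282 against 0.840 ± 0.634 CPM) and Cd79b (0.153 ± 0.0802 against 0.769 ± 0.480 CPM). Both passed the filter on low counts through the GFP group only. The B cell sum ran from 0.951 to 1.42 CPM in CAAHR and from 2.22 to 7.50 CPM in GFP libraries, with Blk at 0 in CAAHR replicate 31.

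Of 10 dendritic cell genes, 7 were tested and 2 were called lower, or 1 without CAAHR replicate 31 or 36. The 2 called genes passed the filter on low counts through the GFP group only. Itgax (CD11c) was at 0.200 ± 0.0843 against 1.39 ± 1.13 CPM, and Ccr7, the receptor that guides dendritic cells and T cells to lymph nodes, had at most 2 counts in any CAAHR library and 13, 17 and 21 in GFP replicates 42, 43 and 46. Flt3, the growth factor receptor of the lineage, had 1, 6 and 1 counts in CAAHR replicates 31, 34 and 36 and 6, 19 and 3 in GFP replicates 42, 43 and 46, and was not tested. The sum ran from 8.37 to 9.81 CPM in CAAHR and from 11.7 to 14.6 CPM in GFP libraries. Much of it came from Zbtb46, named after its values were seen and also known from endothelium, at 6.26 ± 0.911 against 6.73 ± 0.241 CPM. Batf3 was at 0 in CAAHR replicate 36. Of 9 endothelial genes, edgeR and DESeq2 called 0, while 1 had an unadjusted p under 0.05, with a median log2 fold change of 0.03. Pecam1 was at 62.1 ± 10.7 against 57.9 ± 5.54 CPM.

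**Figure D5:**
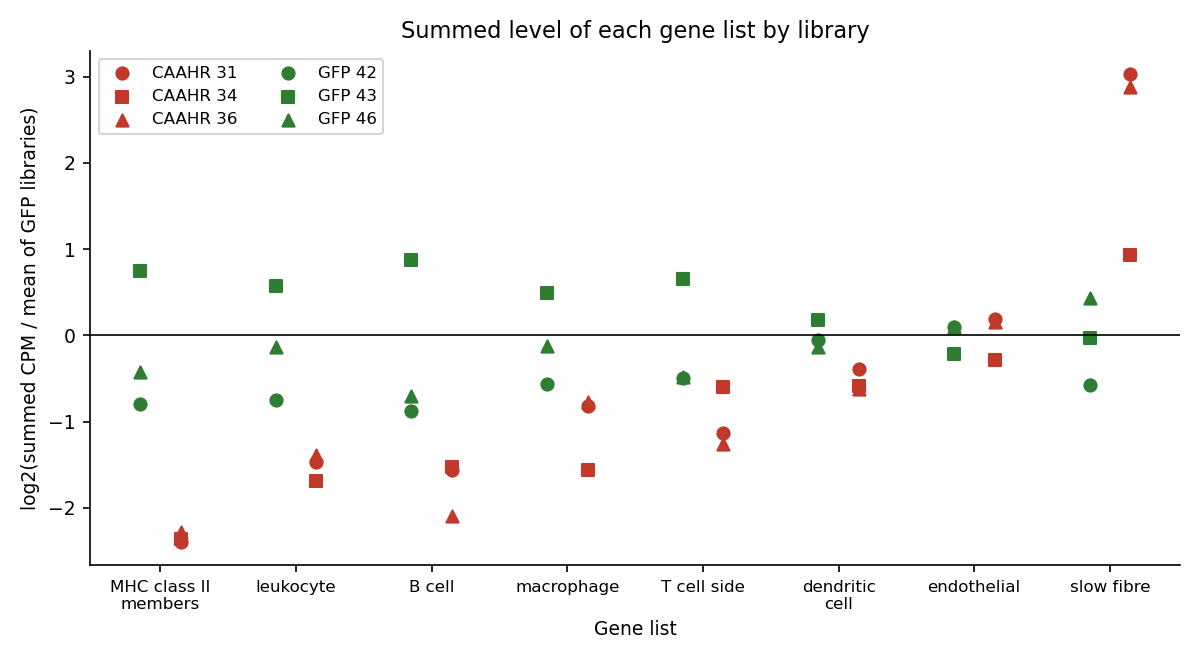
Summed CPM of each gene list in the 6 libraries, as log2 of the ratio to the mean of the GFP libraries, 1 point per library. The class II sum is 5.07-fold lower in the CAAHR mean, the leukocyte sum 2.85-fold, the B cell sum 3.26-fold and the macrophage sum 2.01-fold, while the endothelial sums overlap.

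The class II sum was also set against these marker sums. There were from 2.15 to 2.57 CPM of class II per CPM of leukocyte markers in CAAHR and from 3.33 to 4.61 in GFP libraries. Per CPM of macrophage markers there were from 0.576 to 0.984 and from 1.39 to 2.05, and per CPM of B cell markers from 21.8 to 34.3 and from 35.5 to 46.9. Per CPM of dendritic cell markers there were from 3.08 to 3.90 and from 7.39 to 18.3. Per CPM of the T cell genes described further below there were from 4.37 to 7.28 and from 12.03 to 15.7. None of these ranges overlapped between the groups. In an alternative added after the values were seen, the most abundant gene of each list was left out. The gap between the highest CAAHR and the lowest GFP library then narrowed for the leukocyte and B cell lists and widened for the macrophage list. For the dendritic cell list that gap narrowed as a ratio and widened as a difference. Without Arhgdib, at 5.58 ± 0.869 against 7.96 ± 1.73 CPM, the leukocyte ratios ran from 3.56 to 4.24 in CAAHR and from 4.36 to 5.50 in GFP libraries. Without Cd79a the B cell ratios ran from 24.6 to 44.2 and from 44.8 to 61.2. Without Lyz2 the macrophage ratios ran from 0.804 to 1.35 and from 2.10 to 3.215, and without Zbtb46 the dendritic cell ratios ran from 10.4 to 13.1 and from 16.99 to 33.3. Without Cd28 the T cell ratios ran from 14.6 to 22.8 in CAAHR and from 21.1 to 30.1 in GFP libraries, and so overlapped. No test was made on these sums.

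Of 12 transcription regulators of class II genes, 11 were tested and 1 was called, lower, while 5 had an unadjusted p under 0.05. The log2 fold change was negative in 7 of the 11, with a median of -0.09. The 5 included Rfxank, named after its values were seen, which was higher in CAAHR muscles (0.35 ± 0.13, edgeR adjusted p 0.147). The called gene was Spi1 (PU.1), a transcription factor of myeloid and B cells, at 0.644 ± 0.188 against 1.66 ± 0.418 CPM (-1.36 ± 0.31, edgeR adjusted p 0.0296). It lost its call without CAAHR replicate 31 or 36 or GFP replicate 43 or 46. Rfx5, the X box factor, was at 4.97 ± 0.802 against 6.73 ± 1.74 CPM and did not pass (edgeR adjusted p 0.220).

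Of 8 genes of the interferon gamma axis, 7 were tested and 2 were called, both lower. The log2 fold change was negative in 5 of the 7, with a median of -0.32. An unadjusted p under 0.05 was reached by 5. These included Socs1, named after its values were seen, which was higher in CAAHR muscles (1.64 ± 0.63, edgeR adjusted p 0.172). The receptor chain Ifngr2 was at 39.0 ± 2.89 against 65.8 ± 3.42 CPM (-0.75 ± 0.09, edgeR adjusted p 0.00181) and the transcription factor Irf1 at 4.15 ± 1.29 against 9.72 ± 2.45 CPM (-1.22 ± 0.25, edgeR adjusted p 0.0251). Ifng itself had 0 counts in each CAAHR library and 2, 6 and 1 counts in GFP replicates 42, 43 and 46, too few to test.

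Of 10 endosomal processing genes, all tested, 1 was higher and 1 lower, with a median of -0.06. Ifi30, the thiol reductase that unfolds antigens, was at 2.75 ± 0.290 against 5.71 ± 1.99 CPM (-1.05 ± 0.24, edgeR adjusted p 0.0277). Ctsb, a cathepsin found in most tissues, was at 317 ± 17.8 against 214 ± 8.12 CPM (0.57 ± 0.10, edgeR adjusted p 0.00890). Ctss, the cathepsin that trims Cd74 in antigen-presenting cells, was at 1.76 ± 0.365 against 7.57 ± 5.42 CPM (-2.10 ± 0.52, edgeR adjusted p 0.0656).

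Of 8 genes of class II turnover and co-stimulation, 7 were tested and 1 was called. Cd83, which protects class II from degradation, was at 0.306 ± 0.0845 against 2.08 ± 0.958 CPM (-2.76 ± 0.39, edgeR adjusted p 0.00371). Cd86, a ligand of Cd28, was at 0.320 ± 0.0512 against 0.555 ± 0.311 CPM (edgeR adjusted p 0.320). Of 11 T cell genes, most of them not particular to the T cells that read class II, 5 passed the filter and edgeR called 0. An unadjusted p under 0.05 was reached by 3, and DESeq2 called 2. Their sum ran from 4.48 to 7.07 CPM in CAAHR and from 7.61 to 16.9 CPM in GFP libraries. Without Cd28, named after its values were seen and at 3.66 ± 1.12 against 4.11 ± 0.259 CPM, the sum ran from 1.43 to 2.12 CPM in CAAHR and from 3.40 to 12.6 CPM in GFP libraries. Much of the remaining CAAHR sum was Cd3e, also named after its values were seen. Cd3e was at 1.15 ± 0.308 against 1.54 ± 0.676 CPM (edgeR adjusted p 0.516). Cd4, the co-receptor for class II, had 1, 0 and 7 counts in CAAHR replicates 31, 34 and 36, and 9, 69 and 13 counts in GFP replicates 42, 43 and 46.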

How the data were processed

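Poly(A) RNA of 6 gastrocnemius libraries was sequenced. The authors deposited whole-number counts per gene without normalisation. Per the labels and methods, reads were trimmed with Trimmomatic 0.36, aligned to GRCm38 with STAR 2.5.2b, and uniquely assigned exonic reads were summed per gene with featureCounts. Such counting drops reads that fit several copies or overlapping genes.

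Differences were tested with edgeR 4.0.16 under R 4.3.3 (filterByExpr, TMM, robust quasi-likelihood F test, Benjamini-Hochberg over 15847 genes, threshold 0.05), using group alone. SEs came from the F statistic. Ratios of counts were compared by exact permutation. Alternatives were DESeq2 1.42.0 (the authors' tool), limma 3.58.1 voom, edgeR without robust estimation, 3 scalings, 2 filters and leaving out each library. No library repeated another of its group (chi-square divided by its degrees of freedom, lowest value 21.6). Calculations were tested on simulated data. Positions and exon lengths came from GENCODE M21 (GRCm38), and promoters from RefSeq. All 10 members were named. From companion lists, certain preset genes and up to 4 called genes with the smallest p were named, and so were the 8 genes nearest in profile. Some preset genes are not reported here. Members and lists were chosen with earlier results of these data known. Floors cover counting error only, while SDs and SEs include the spread between libraries.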

Additional observations from a re-analysis of the deposited data

How the results depend on the processing

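No paired analysis was possible because replicates 31, 34 and 36 had no counterpart of the same number in the other group. The count of called members, 6 as reported, was between 5 and 9 under each other scaling, filter and test, and with single libraries dropped lay between 0 (without CAAHR replicate 36) and 9 (without GFP replicate 42). The count also over 2-fold, 6, had the same range of 0 to 9. The 21 called genes of the companion lists became 50 without a filter on low counts, 46 with DESeq2 and 33 with edgeR without robust estimation, and numbered 8 to 29 when single libraries were dropped. The cause was not tested. In 126 refits of single members, the log2 fold change was negative in each, from -2.81 to -1.34. The call was lost in 22 and gained in 19. H2-Ab1 and Cd74 lost theirs without a filter, and H2-DMa and Ciita with limma-voom. The log2 difference of the Cd74 to Ptprc ratio, -0.04, lay between -0.14 and 0.11 when single libraries were dropped, turning sign without CAAHR replicate 34 (0.0305) and without GFP replicate 42 (0.106). Genes near or under 1 CPM (H2-DMa and H2-DMb1 in CAAHR libraries, H2-DMb2, H2-Oa, H2-Ob and Ciita) rest on few counts.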

Other observations

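Between the first and the last class II gene on chromosome 17 lie 5 other coding genes, examined after the results above were known. Psmb8 and Psmb9 encode immunoproteasome subunits, and Tap1 and Tap2 the peptide transporter of class I presentation. In CAAHR libraries Psmb9 averaged 0.907 ± 0.284 CPM (SD, n = 3), and in GFP libraries 2.85 ± 1.14 CPM (log2 fold change -1.64 ± 0.33, edgeR adjusted p 0.0193). Psmb8 was at 2.502 ± 0.437 against 5.95 ± 1.90 CPM (-1.24 ± 0.24, edgeR adjusted p 0.0144) and Tap2 at 8.05 ± 0.797 against 14.0 ± 1.82 CPM (-0.80 ± 0.13, edgeR adjusted p 0.00722). Tap1 was at 2.58 ± 0.890 against 8.11 ± 4.91 CPM and missed the threshold (edgeR adjusted p 0.0877). Brd2, a chromatin reader expressed in most cells, was at 97.1 ± 12.5 against 92.1 ± 3.63 CPM.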
